A study of Mus musculus with 4 samples.

Results

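The genes described here are 9 heat shock chaperones of the cytosol and the mitochondrial matrix, with Hsf1, the transcription factor that turns many of them on. They were chosen by symbol: Hsp90aa1, Hsp90ab1, Hspa8, Hspa4, Hsph1, Hspb1, Hspa9, Hspd1, Hspe1 and Hsf1, which make 10 of the 78028 rows in each library's count table. All 10 were found, each as 1 row, and all 10 passed the filter on low counts that left 17398 genes for testing. RNA came from 4 cultures of mouse E14TG2a embryonic stem cells, an established male line, each differentiated on its own with the A-HIC mixture (advanced hepatic-inducing cocktail) into cells labelled hepatocyte-like. The labels give no genetic change, time or dose, and no undifferentiated or untreated culture is analysed here. There is 1 group, so no condition is compared, and each library goes by its replicate number, 1 to 4. The comparisons the design allows are between genes within a culture and between cultures.

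Heat shock chaperones bind proteins that are unfolded or not yet folded, and most of them use ATP to let go again. Hsp70 proteins take up short exposed stretches with the help of J-domain proteins, and nucleotide exchange factors such as the Hsp110 proteins reset them. Hsp90 receives partly folded clients such as kinases and steroid receptors, with co-chaperones that choose the client and time the cycle. In the mitochondrial matrix a dedicated Hsp70 pulls proteins in, and the barrel of Hsp60 with its lid Hsp10 folds them. Small heat shock proteins hold unfolded proteins without ATP. When unfolded protein accumulates, Hsf1 is released from chaperones, forms trimers and binds heat shock elements, which are repeats of the unit GAA in alternating orientation. Embryonic stem cells are known for high chaperone levels, and hepatocytes for a heavy load of secreted protein.

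Libraries 1 to 4 held 37.8, 40.2, 29.5 and 40.1 M counts, and 39251 rows had a count in at least 1 of them. Levels are given in TPM, a unit that corrects for gene length and library size and so allows 1 gene to be set against another. Markers of hepatocytes were low: Alb stood at 0 to 7.19 TPM, Fabp1 had no count in any library, and 2 of the 8 hepatocyte markers reached 1 TPM in all 4 libraries. The summed hepatocyte markers ranged from 7.72 TPM in library 1 to 76.8 TPM in library 2. All 8 pluripotent stem cell markers, all 8 parietal endoderm markers and all 6 fibroblast markers were above 1 TPM throughout. Their sums ran from 4135 (library 2) to 7560 TPM (library 1) for pluripotency, from 3129 (library 1) to 10094 TPM (library 2) for parietal endoderm and from 1691 (library 3) to 3631 TPM (library 2) for fibroblasts. These are bulk libraries, in which fewer cells of a type and less RNA per cell cannot be told apart.

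Chaperone transcripts were abundant in every culture. The 10 genes together made up 18574 ± 1154 TPM (SD, n = 4), which is 1.86% ± 0.115 of all TPM, and all 10 exceeded 1 TPM in all 4 libraries, against 63.5% of 19872 protein-coding genes. The sum was 19261 TPM in library 1, 17431 TPM in library 2, 19831 TPM in library 3 and 17775 TPM in library 4. The Hsp90 pair supplied 69.7% ± 0.559 of it (SD, n = 4). Levels spanned from Hsp90ab1, second among protein-coding genes in mean TPM, to Hsf1 at rank 7380. Gene lengths set part of this scale. With the length of each gene's longest coding transcript in place of all its exons the sum was 16239.8 ± 949.7 TPM. With similar pseudogene rows added it was 19826 ± 1192 TPM, and both alternatives were chosen after seeing the data.

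**Figure D1:**
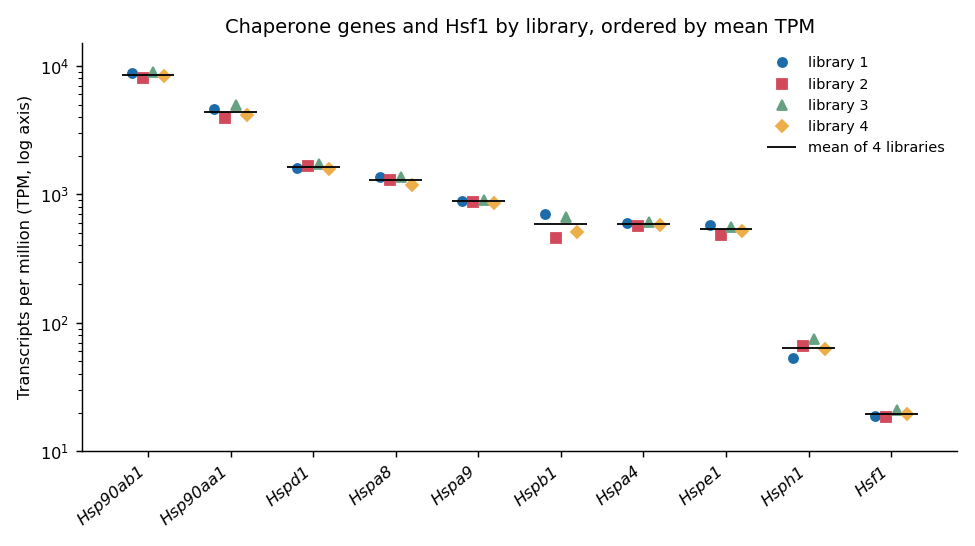
Level of each of the 10 genes in TPM on a log axis, with 1 marker per library and a black bar at the mean of the 4 libraries, ordered by mean. Hsp90ab1 and Hsp90aa1 lie at 3936 TPM or more in every library, 6 genes lie between about 461 and 1733 TPM, and Hsph1 and Hsf1 lie below 75 TPM.

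Hsp90ab1, on chromosome 17, encodes the cytosolic Hsp90 that cells make constantly. It had 8842, 8075, 8928 and 8335 TPM in libraries 1, 2, 3 and 4. No library stood apart, since the highest was 1.11 times the lowest. Hsp90aa1, on chromosome 12, encodes the cytosolic Hsp90 that heat and other stress raise. It had 4612, 3936, 4951 and 4134 TPM in libraries 1, 2, 3 and 4, and had rank 5 among protein-coding genes. Its 4 values lay below every Hsp90ab1 value, and libraries 1 and 3 were above libraries 2 and 4 for both genes. The log2 ratio of Hsp90ab1 to Hsp90aa1 was 0.96 ± 0.08 (SD, n = 4), a 1.94-fold difference with the same direction in 4 of 4 libraries (exact two-sided sign-flip test, p = 0.125). With 4 libraries 0.125 is the smallest p this test can give, so no ratio here can pass 0.05. Hsp90b1, the Hsp90 of the endoplasmic reticulum, averaged 924 ± 185 TPM, and Hsp90ab1 stood 9.38-fold above it. Trap1, the mitochondrial Hsp90, averaged 216 ± 15.8 TPM.

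Hspa8 encodes the constitutive cytosolic Hsp70, which takes part in folding, in clathrin uncoating and in chaperone-mediated autophagy. It had 1367, 1297, 1367 and 1185 TPM in libraries 1, 2, 3 and 4, with library 4 the lowest and a mean of 1304 ± 85.6 TPM. The rows of its stress-induced relatives had low levels. Hspa1b averaged 12.3 ± 1.81 TPM and Hspa1a 3.52 ± 0.611 TPM, and since these neighbours are near-identical copies, their separate counts are uncertain. How reads that align to both were handled is not known, so their total and any ratio to Hspa1b are uncertain too. Hspa8 stood 106-fold above Hspa1b, 1.36-fold above Hspa5, the Hsp70 of the endoplasmic reticulum, and 1.48-fold above mitochondrial Hspa9, each in 4 of 4 libraries. With the lengths of the longest coding transcripts Hspa8 stood 190-fold above Hspa1b, 2.12-fold above Hspa5 and 1.88-fold above Hspa9. The log2 ratio of Hspa8 to Hspa5 had a wide spread, 0.44 ± 0.31, and Hspa5 itself averaged 969 ± 169 TPM.

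The Hspa8 level carries a doubt, because the row of a near-identical copy held nearly as many counts. Gm15459, a processed pseudogene on chromosome 5, is a copy of the whole Hspa8 coding sequence (646 codons; Hspa8 lies on chromosome 9). Aligned over 1941 bases, they differ at 5 positions, G114A, C414T, C549T, G1222A and C1440T, counted from 1 at the A of the start codon with the Hspa8 base first. Of these, G1222A alone changes an amino acid. The longest run without a difference is 672 bases, and 61.0% of the 1792 possible windows of 150 bases, the read length in the labels, hold no difference at all. These stretches around positions 114 and 414, from the GENCODE M21 transcripts, show how little there is to tell the copies apart, with the differing base in capitals:
Hspa8, bases 84 to 144: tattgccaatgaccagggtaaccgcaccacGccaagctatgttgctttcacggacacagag
Gm15459, bases 84 to 144: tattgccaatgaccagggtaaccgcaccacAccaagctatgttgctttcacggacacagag
Hspa8, bases 384 to 444: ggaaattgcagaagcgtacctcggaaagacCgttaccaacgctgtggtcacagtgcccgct
Gm15459, bases 384 to 444: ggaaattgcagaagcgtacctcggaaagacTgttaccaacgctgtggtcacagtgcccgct

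The 2 rows shared almost equal counts. Hspa8 had 60723, 56678, 46296 and 53110 counts in libraries 1, 2, 3 and 4, and Gm15459 had 50583, 50771, 41560 and 49915. The copy's count was thus 83.3%, 89.6%, 89.8% and 94.0% of the Hspa8 count. In counts Hspa8 was above its copy in all 4 libraries, with 54.6% of their summed counts in library 1, 52.7% in libraries 2 and 3, and 51.6% in library 4. Per length the order was the other way round, with 1304 ± 85.6 TPM for Hspa8 over a union length of 4301 bases and 2571 ± 108 TPM for Gm15459 over 1941 bases. The summed count was 111306, 107449, 87856 and 103025 counts. How reads that align to both were handled is not given in the sources used here, so the reads that belong to Hspa8 cannot be counted apart from those of the copy. With the counts of all 15 similar pseudogene rows added, the level computed for Hspa8 was 2471 ± 123 TPM, 1.90 times the level without them and above that of Hspd1. The log2 ratio of Hspa8 to Hspa1b was then 7.65 in place of 6.73, and to Hspa5 1.36 in place of 0.44. Any read counted in more than 1 of these rows enters the summed level more than once, which would make that level too high.

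**Figure D2:**
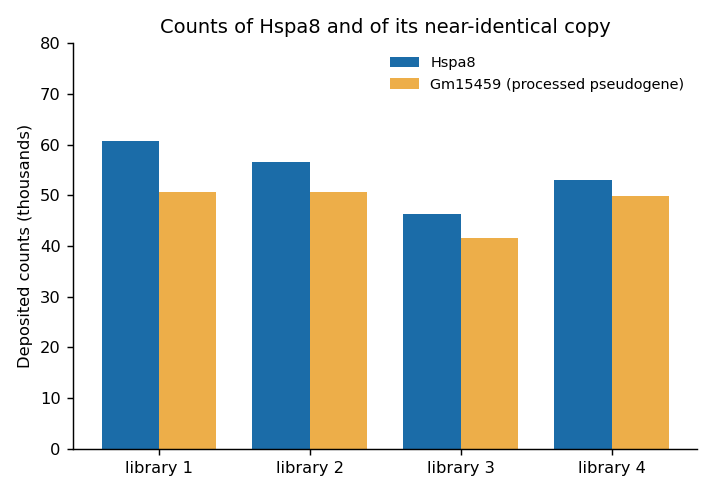
Deposited counts of Hspa8 (blue) and of its processed pseudogene Gm15459 (yellow) in each library, with bars from 0. The copy's bar reaches 83.3% to 94.0% of the Hspa8 bar.

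For the others the rows of similar copies held few counts beside the gene's own. How reads that align to several places were handled is not known. Few counts in a copy's row therefore do not show that the gene lost no reads. Hsp90aa1 had the next largest share, with pseudogene rows adding 1.37% of its counts on average, mostly Gm12346 (99.5% identical). Hspd1-ps3 had 560, 531, 474 and 704 counts, or 1.20% to 1.62% of the Hspd1 count, while the other 4 Hspd1-ps rows had none. The 6 Hspe1-ps rows and Hspa9-ps1 had at most 12 counts each in any library. No similar pseudogene row was found for Hspa4, Hsph1 or Hsf1.

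Hspa4 and Hsph1 encode Hsp110 proteins, large relatives of Hsp70 that act as its nucleotide exchange factors and, in animals, help it take aggregates apart. Hspa4 was the abundant one, with 599.6, 564, 612 and 576 TPM in libraries 1, 2, 3 and 4. Hsph1 had 53.5, 66.3, 74.4 and 62.3 TPM, lowest in library 1 and highest in library 3. Every Hspa4 value lay above every Hsph1 value, a log2 ratio of 3.20 ± 0.20 (9.22-fold, 4 of 4 libraries). With the lengths of the longest coding transcripts the ratio was 5.78-fold, in the same direction. Hspa4l, another Hsp110 gene of the cytosol, averaged 4.76 ± 1.05 TPM.

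Hspa9, mitochondrial Hsp70 or mortalin, drives import into the matrix and folds proteins there. Its 887, 880.2, 912 and 850.1 TPM in libraries 1, 2, 3 and 4 gave the smallest spread of the 10 genes. Hspd1, which encodes Hsp60, had 1593, 1649.6, 1733 and 1577 TPM, and stood 1.86-fold above Hspa9 with a log2 ratio of 0.89 ± 0.03 (SD, n = 4). With the lengths of the longest coding transcripts Hspd1 stood 1.43-fold above Hspa9. Both genes were highest in library 3 and lowest in library 4, within a range of 1.10-fold. Hspe1, which encodes the lid Hsp10, had 579, 484, 562 and 523 TPM in libraries 1, 2, 3 and 4, lowest in library 2. Hspd1 exceeded Hspe1 in 4 of 4 libraries by a log2 ratio of 1.61 ± 0.13 (3.06-fold). The size of that ratio depends on the length used for Hspe1, 1474 bases over all exons against 774 bases in its longest coding transcript: with transcript lengths it was 1.75-fold, in the same direction.

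Hspd1 and Hspe1 lie head to head on chromosome 1 and share a promoter. RefSeq promoter windows of 300 bases around the start site (build GRCm38.p6) were matched by symbol for 5 of the 10 genes, Hspa4, Hspd1, Hspe1, Hsph1 and Hspb1. The second of 2 Hspd1 windows and the Hspe1 window overlap by 285 bases, with start sites 216 bases apart. Each window was searched on both strands for a heat shock element, either as a pair of units (GAANNTTC or TTCNNGAA) or as 3 units in a row (GAANNTTC followed by NNGAA, or TTCNNGAA followed by NNTTC). A run of 3 units always contains pairs, so the matches overlap. The windows of Hspe1, Hsph1 and Hspb1 are shown because they differ in how many units they hold, with the matched letters in capitals:
Hspe1, chr1:55087898-55088197, plus strand: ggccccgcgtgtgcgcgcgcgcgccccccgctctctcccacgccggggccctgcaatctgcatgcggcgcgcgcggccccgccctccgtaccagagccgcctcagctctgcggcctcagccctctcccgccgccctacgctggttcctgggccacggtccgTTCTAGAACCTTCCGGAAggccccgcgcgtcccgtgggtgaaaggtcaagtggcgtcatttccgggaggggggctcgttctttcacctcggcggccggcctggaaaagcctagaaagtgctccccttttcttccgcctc
Hsph1, chr5:149636287-149636586, minus strand: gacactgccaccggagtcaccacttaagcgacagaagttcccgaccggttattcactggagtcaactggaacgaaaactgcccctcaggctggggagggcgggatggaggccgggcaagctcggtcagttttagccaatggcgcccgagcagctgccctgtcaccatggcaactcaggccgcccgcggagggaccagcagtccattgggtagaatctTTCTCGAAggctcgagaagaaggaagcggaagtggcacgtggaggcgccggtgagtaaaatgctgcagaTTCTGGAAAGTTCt
Hspb1, chr5:135887669-135887968, plus strand: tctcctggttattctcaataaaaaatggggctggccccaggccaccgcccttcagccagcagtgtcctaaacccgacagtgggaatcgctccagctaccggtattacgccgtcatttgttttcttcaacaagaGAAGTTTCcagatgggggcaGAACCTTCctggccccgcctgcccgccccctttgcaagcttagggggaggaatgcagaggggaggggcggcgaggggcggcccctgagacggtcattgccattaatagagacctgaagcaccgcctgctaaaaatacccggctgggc

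In the Hspe1 window the pairs begin 89, 84 and 79 bases before the start and join into 1 run of 18 bases, which the overlapping Hspd1 window holds on the other strand. Hsph1 holds 1 pair 33 bases before the start of the window shown and a run of 3 units inside the first 50 transcribed bases. Hspb1 holds 2 separate pairs, 117 and 97 bases before the start, and no run of 3. The Hspa4 window held none, which says only that these letters are not in that stretch. A pair was thus present for 4 of the 5 genes with a window, against 17.0% of 27025 genes, and a run of 3 for 3 of the 5 (Hspd1, Hspe1 and Hsph1), against 0.662% of genes. For Hspd1 and Hspe1 these are the same 18 bases read on opposite strands, so the 5 genes hold 2 separate runs, and the first Hspd1 window held no match of either kind. A match describes the letters and does not show that Hsf1 was bound in these cells.

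Hspb1, the mouse small heat shock protein also called Hsp25, binds unfolded proteins without ATP and protects actin filaments. It had 709, 461, 670.1 and 513 TPM in libraries 1, 2, 3 and 4, with a mean of 589 ± 119.9 TPM. Library 1 was 1.54 times library 2, the widest range of the 10 genes. The SD of its log2 CPM (counts scaled by library size with TMM factors, not by gene length) was 0.300, above 74.2% of all genes tested and above 90.5% of the protein-coding genes of like level (1 of 10 equal bins). The summed parietal endoderm markers, at 3129, 10094, 3801 and 7688 TPM in libraries 1 to 4, and the pluripotency markers, at 7560, 4135, 6855 and 5066 TPM, also differed between these cultures. Hepatocyte markers summed to 7.72, 76.8, 11.7 and 29.5 TPM and fibroblast markers to 1947, 3631, 1691 and 2777 TPM. Their part in the Hspb1 level was not tested. Cryab, or alpha-B crystallin, the most abundant of the other small heat shock proteins, had 155, 132, 110.3 and 128 TPM, and Hspb1 stood 4.45-fold above it (log2 ratio 2.15 ± 0.34, 4 of 4 libraries).

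Hsf1 was the lowest of the members and even between libraries, with 18.7, 18.4, 20.9 and 19.5 TPM in libraries 1, 2, 3 and 4 (mean 19.4 ± 1.12). The median over all protein-coding genes was 7.68 TPM. Hsf1 activity is controlled after transcription, so its mRNA does not report it. It was below Hsf2, a related factor active in development, in all 4 libraries (29.5 ± 1.75 TPM; log2 ratio of Hsf1 to Hsf2 -0.60 ± 0.11, exact sign-flip p = 0.125). The Hsf1 level depends on the length used, 7099 bases over all exons against 2104 bases in its longest coding transcript. With transcript lengths Hsf1 averaged 45.5 ± 2.59 TPM and still lay below Hsf2, with a log2 ratio of -0.73.

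From top to bottom the order of mean TPM was Hsp90ab1, Hsp90aa1, Hspd1, Hspa8, Hspa9, Hspb1, Hspa4, Hspe1, Hsph1 and Hsf1. Of the 9 pairs of neighbours, 8 kept their order in all 4 libraries (exact sign-flip p = 0.125 each). The exception was Hspb1 and Hspa4, whose log2 ratio of -0.02 ± 0.25 was smaller than its spread, with Hspb1 higher in 2 of 4 libraries (exact p = 0.875). Hspa8 stood above Hspd1, not below it, by transcript length, by CPM or with pseudogene rows added. The order of Hspb1, Hspa4 and Hspe1 also changed with the length: by transcript length Hspe1 led with 709.7 ± 54.1 TPM, before Hspa4 with 489 ± 16.9 and Hspb1 with 453 ± 90.7.

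Most of these genes varied less between cultures than the median gene, but so do abundant genes in general. Their median SD between libraries was 0.0852 on the log2(CPM + 0.5) scale, against 0.192 over all 17398 genes tested and 0.178 over protein-coding genes. The 10 SDs ran from 0.0390 for Hspa9 to 0.300 for Hspb1, and 9 of the 10 were below the median of all genes tested. Hsph1, at 0.187, was the nearest to it. Set against protein-coding genes of like level, in 10 equal bins, the picture was more even: the median SD was 0.113 in the top bin, which holds 7 of the 10, and 0.122 in the next, which holds Hspb1 and Hsph1. On that scale Hspb1 was above 90.5% of its bin, Hsph1 above 73.3%, Hsp90aa1 above 64.2% and Hspe1 above 52.8%, while Hspa8 was above 42.0%, Hsp90ab1 above 23.3% and Hspa4, Hspd1, Hsf1 and Hspa9 above 6.27% to 12.4%. Single libraries set several of these values: the SD was 0.0324 without library 3 for Hspd1 (0.0527 with it), 0.0460 without library 4 for Hspa8 (0.0980), 0.0191 without library 4 for Hspa9 (0.0390), 0.122 without library 1 for Hsph1 (0.187) and 0.0420 without library 3 for Hsf1 (0.0724). The SDs also moved with the scaling: with library totals in place of TMM factors the members' median was 0.123, against 0.197 for all genes tested, and the SD of Hspa4 was 0.0986, against 0.0530 with TMM. edgeR's tagwise coefficient of variation, which is drawn toward genes of like level, was also put on the log2 scale. It was then 0.163 for the members' median against 0.268 for all genes tested.

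**Figure D3:**
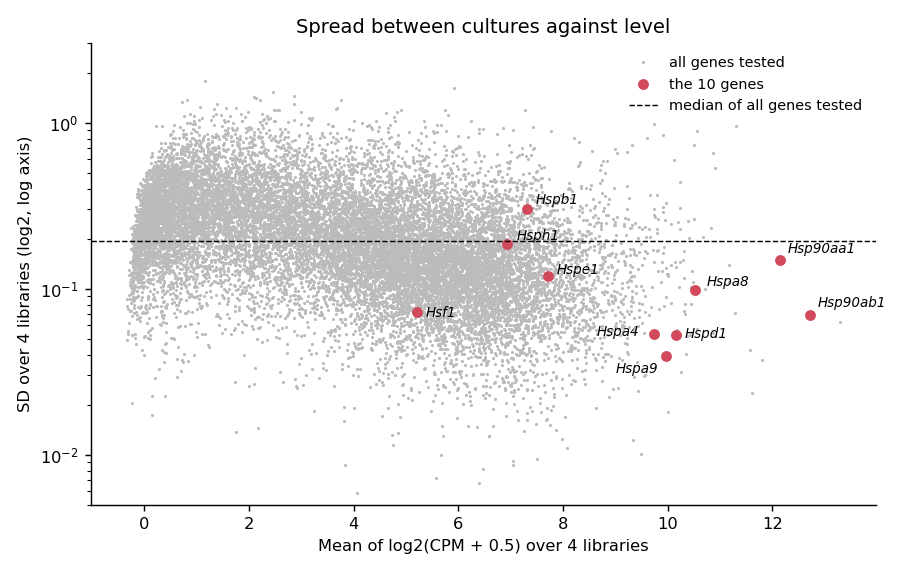
SD over the 4 libraries against mean level, both on the log2(CPM + 0.5) scale with the SD on a log axis, for all 17398 genes tested (grey) and the 10 genes (red), with a dashed line at the median SD of all genes, 0.192. Hspb1 lies above the line at 0.300 and the other 9 genes lie below it.

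The small differences between cultures leaned the same way for many of the genes. Library 3 gave the highest CPM for 6 of the 10 and library 1 for the other 4, against 21.2% and 29.7% of all genes tested. Library 2 gave the lowest for 6, library 4 for 3 and library 1 for 1, Hsph1. Over all genes tested library 2 was lowest for 30.3%, library 4 for 20.4% and library 1 for 28.6%. These genes share the libraries' scaling, so their counts are not independent of each other.

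**Figure D4:**
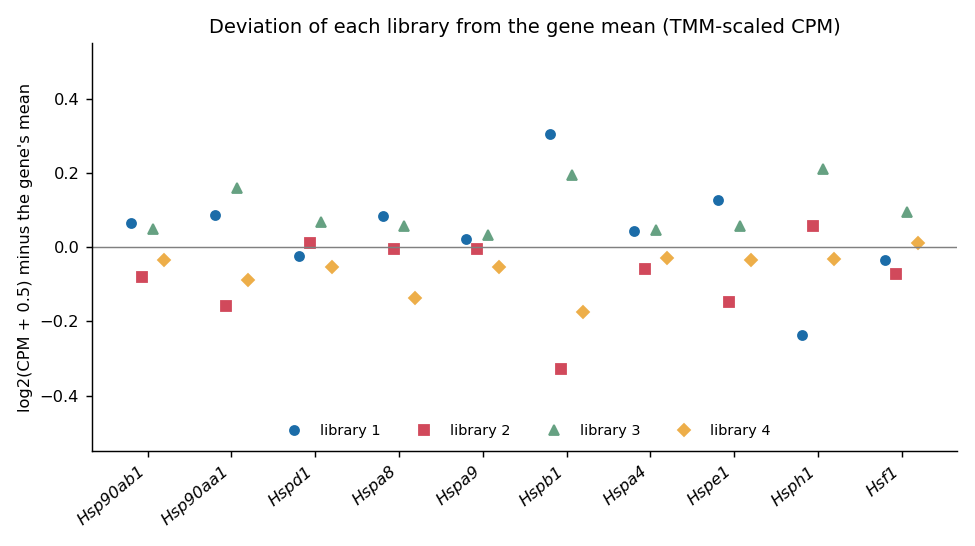
Deviation of each library from the gene's own mean of log2(CPM + 0.5), scaled with TMM, with 1 marker per library. Hspb1 has the widest range, 0.63 from library 2 to library 1, and Hspa9 the narrowest, 0.09.

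Each library was also tested against the other 3 with edgeR's quasi-likelihood test over all 17398 genes, which takes the lone library to be as variable as the rest. With Benjamini-Hochberg adjustment at 0.05 it called 0.0% of genes in each of the 4 comparisons, and none of the 10 members. At an unadjusted p under 0.05 it gave 926, 1284, 274 and 269 genes for libraries 1, 2, 3 and 4, again with no member among them. DESeq2 called 8, 69, 3 and 3 genes (0.0469%, 0.492%, 0.0172% and 0.0172%) and no member. Without the filter on low counts edgeR called 0.836%, 1.19%, 0.00255% and 0.0153% of genes and no member. Hspb1 had the largest fitted differences of the members, with a log2 fold change of 0.39 ± 0.20 (SE) in library 1 (edgeR adjusted p = 0.723) and -0.45 ± 0.20 in library 2 (edgeR adjusted p = 0.626). Leaving out a library changed member calls only when it was nearest in counts to the lone library, and then for Hspb1 alone. It was called in library 1 without library 3 (log2 fold change 0.56, edgeR adjusted p = 0.00216) and in library 2 without library 4 (-0.58, adjusted p = 0.00186), when edgeR also called 12.4% and 14.4% of all genes. It was called in library 3 without library 1 (0.45, adjusted p = 0.0233) and in library 4 without library 2 (-0.42, adjusted p = 0.0200), beside 7.35% and 7.8% of all genes.

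The partners of these chaperones were nearly all present. Of 93 further genes in 10 lists around the heat shock network, 88 were at 1 TPM or more in all 4 libraries (94.6%), against 63.5% of all protein-coding genes. All 16 Hsp90 co-chaperones were expressed, with a median of 108.6 TPM. They reached from Stub1, the ubiquitin ligase that marks chaperone clients, at 26.8 ± 1.74 TPM to Nudc at 786 ± 66.3 TPM, and Sugt1 varied most with an SD of 0.188 in log2 CPM. All 13 cytosolic J-domain proteins were expressed, from Dnaja4 at 4.04 ± 0.439 TPM to Dnaja2 at 446 ± 14.3 TPM, with the largest SD, 0.200, for Dnajc5. The 7 other nucleotide exchange factors, all expressed, were led by Bag1 at 515 ± 23.7 TPM, with Bag2 lowest at 22.1 ± 3.42 TPM and the stress-induced Bag3, at 99.3 ± 16.2 TPM, the most variable (SD 0.220).

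Subunits of the chaperonin TRiC and of prefoldin, which fold actin and tubulin, had the highest median of these lists, 302 TPM, with all 14 expressed. Cct2 was the steadiest of them at 1069 ± 8.88 TPM, an SD of 0.0101 in log2 CPM, while Pfdn4 was lowest at 43.4 ± 4.10 TPM and Pfdn1 most variable at 0.192. All 15 other mitochondrial chaperones and proteases were expressed, with a median of 78.9 TPM, between Pam16 at 15.5 ± 0.720 TPM and Trap1, and Dnajc19 varied most (SD 0.273). All 6 counterparts in the endoplasmic reticulum were expressed, from Sil1 at 25.7 ± 1.13 TPM to Hspa5 at 969 ± 169 TPM. Hsp90b1 varied most, with 706, 1145, 865 and 982 TPM in libraries 1 to 4.

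The remaining Hsp70 and small heat shock genes all lay below the members' median of 735 TPM. Of the 8 other cytosolic Hsp70 and Hsp110 genes 7 were expressed, with a median of 7.24 TPM. Hspa14, a ribosome-associated Hsp70, led at 91.7 ± 6.94 TPM, followed by Hspa1b at 12.3 ± 1.81, Hspa12b at 9.62 ± 2.78, the testis-enriched Hspa2 at 8.98 ± 0.467 and Hspa12a at 5.5 ± 0.795 TPM, and Hspa1l was lowest at 0.545 ± 0.175 TPM. Hspa12b had the largest SD of that list, 0.410. Of the 8 other small heat shock genes 6 were expressed, with a median of 12.1 TPM, against 7.68 TPM over all protein-coding genes, and a median SD of 0.316. Hspb8 averaged 109 ± 21.6 TPM, Hspb7 35.2 ± 8.86, Hspb6 18.1 ± 2.77, Hspb2 6.04 ± 2.65, the lens crystallin Cryaa 2.51 ± 1.25 and the testis gene Hspb9 1.25 ± 0.295 TPM. Hspb3 had no count in any library, which allows up to 0.0747 to 0.102 CPM for 3 counts, counting error alone.

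Among the other heat shock factors and their regulators 4 of 6 were expressed. Hsbp1, which binds Hsf1 trimers, averaged 175 ± 7.39 TPM, Hsf2bp 52.7 ± 9.20, Hsf4 8.43 ± 1.13, Hsf5 0.602 ± 0.318 and Hsf3 0.0868 ± 0.0918 TPM. The 12 genes of a heat-inducible list, which includes members and other listed genes, were all expressed, with a median of 73.8 TPM and a median SD of 0.202. They ranged from Hspa1a, the classical inducible Hsp70, to Hsp90aa1, and Hspa4l varied most (SD 0.303).

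**Figure D5:**
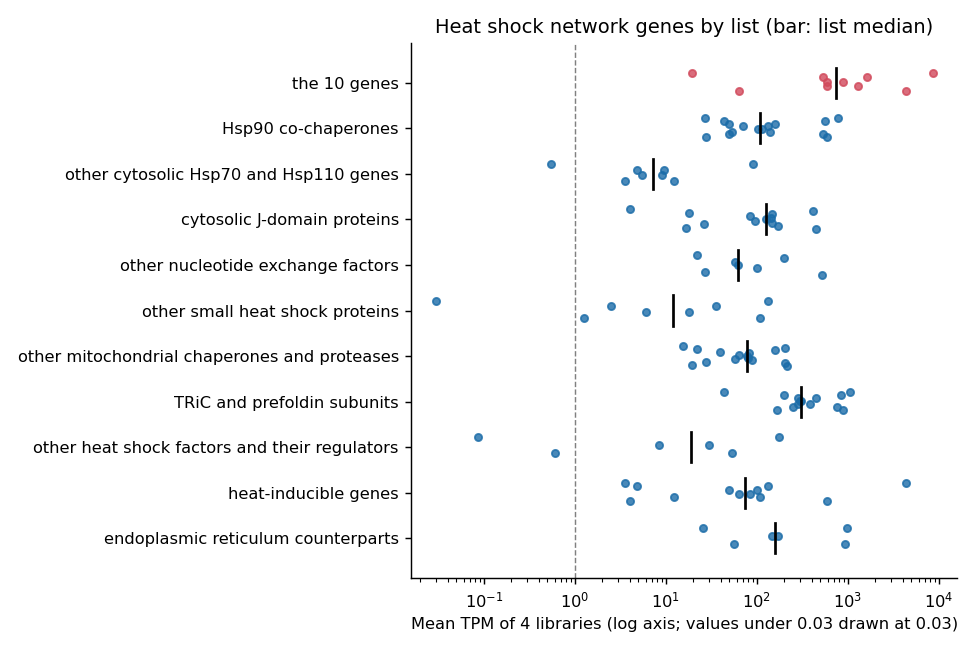
Mean TPM over the 4 libraries of each gene in the heat shock network lists, on a log axis with 1 point per gene, a bar at each list's median and a dashed line at 1 TPM. The 10 members have a median of 735 TPM, TRiC and prefoldin subunits 302 TPM, and the other cytosolic Hsp70 and Hsp110 genes 7.24 TPM.

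The protein-coding genes nearest in level over the 4 libraries, by root mean square difference of log2(TPM + 0.1), were found for 3 of the members. For Hsp90ab1 they were Ptma at 0.42, Rplp1 at 0.79 and Eef1a1 at 0.84, so no gene was close to it. For Hspb1 they were Gpx4 at 0.05, Rpl36a at 0.09 and H2az1 at 0.13. Gpx4 had 689, 483, 679 and 539 TPM in libraries 1 to 4. It was chosen for nearness to Hspb1 in these same libraries, so a like pattern follows from the choice. For Hsf1 they were Kif14 at 0.02, Arhgap8 at 0.05 and Pradc1 at 0.06.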

How the data were processed

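The authors deposited raw counts for each gene, from poly(A), non-strand-specific libraries read from both ends. The authors used STAR and featureCounts with GRCm39 (mm39), per the submitters' processing notes. Versions, annotation and options of these tools are not stated in the labels. Even numbers made up 60.0% to 62.6% of counts between 1 and 8, as arises when both ends of a pair are counted. The 37 mitochondrial rows were 0 throughout. Without strand, antisense partners share their reads.

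TPM was computed from the deposited counts and union-of-exon lengths of GENCODE M21 (GRCm38, not the submitters' build). Lengths were found for 48750 rows (48148 by current symbol, 597 by another symbol, 5 by ID), which held 98.7% to 98.9% of the counts. Similar copies were found with BLAST+ 2.17.0 (80% identity over 200 bases or more). Spread was the SD of log2(CPM + 0.5) with TMM factors. Ratios used log2(TPM + 0.1), which understates ratios of low genes. edgeR 4.0.16, limma 3.58.1 and DESeq2 1.42.0 ran in R 4.3.3 after filterByExpr. Other steps used Python 3.11.15, numpy 2.4.6, pandas 2.3.3 and matplotlib 3.10.9. Expressed means at least 1 TPM in each library. No pair of libraries agreed within sampling noise (chi-square per degree of freedom 12.0 or more). The nearest pairs in counts were libraries 1 and 3 at 12.0 and libraries 2 and 4 at 19.7. The other pairs ran from 32.4 to 83.0.

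The members, lists, gene pairs and markers were chosen with earlier results of these data known. The text names all members, the highest, lowest and most variable gene of each list, every gene of the Hsp70, small heat shock and heat shock factor lists, every pair, rows named as pseudogenes of a member, and the 3 nearest genes of Hsp90ab1, Hspb1 and Hsf1. Gm15459, Gm12346, Gm5844 and Gm8355 were picked once their values were known. Alternatives tried were other scalings, lengths, pseudocounts, thresholds and tools, no filter, added copies, and leaving out each library.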

Additional observations from a re-analysis of the deposited data

How the results depend on the processing

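None of the 10 gene pairs changed direction under the alternatives tried, while in the order of levels Hspa8 passed Hspd1 by CPM, by transcript length and with copies added. The sum of the members was 19826 TPM with similar pseudogene rows added and 16239.8 TPM with transcript lengths, against 18574 TPM, both tried after seeing the data. Leaving out 1 library gave sums between 18156 and 18956 TPM. The members' median spread was 0.163 as edgeR's tagwise coefficient of variation put on the log2 scale, against 0.0852 as an SD. In the comparisons of 1 library with the rest, leaving out another library gave 0 to 1 members called for each of the 4 libraries, always Hspb1. Without a low-count filter edgeR called 328, 469, 1 and 6 genes for libraries 1 to 4 and no member, and the cause was not tested. Between 88 and 89 of the 93 listed genes stayed expressed when 1 library was left out. Library totals in place of TMM gave a median SD of 0.123, and SDs of 0.116 for Hsp90ab1, against 0.0697, of 0.0986 for Hspa4, against 0.0530, and of 0.0762 for Hspa9, against 0.0390. No paired analysis was possible because all samples belong to a single group. Depth limits the lowest listed genes, Hsf3 and Hspb3, where 3 counts amount to 0.0747 to 0.102 CPM.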

Other observations

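Further rows that resemble the members had counts of their own. Gm12346, a transcribed processed pseudogene of Hsp90aa1 on chromosome 11, had 2432, 2134, 2045 and 2074 counts in libraries 1, 2, 3 and 4. These counts are not scaled by library size, and library 3 had the fewest counts in all. Gm5844, another copy of Hsp90aa1 on chromosome 3, had 110, 110, 86 and 115 counts. Gm8355, a copy of Hspa8 on chromosome 10 that is 98.7% identical over 1941 bases, had 318, 229, 161 and 274 counts, far below the 41560 to 50771 counts of Gm15459, which is 99.7% identical over the same length. None of 64 gene or sum values had 1 library standing far from the other 3 by Dixon's test, where chance alone gives about 3.2.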
